A study of Mus musculus with 6 samples.

Results

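Hepatocyte transcripts in islet RNA were followed through 38 genes, all of which had a probe on the array, of 19750 genes with a symbol and a probe. The list was drawn up after levels and detection flags of the same 6 arrays had been seen, so the differences of these genes between groups are given as a description. Counts of members that passed a test over all genes are given beside the share of all genes, and nothing is read from them. By textbook role the list holds 8 plasma carriers and apolipoproteins, 5 protease inhibitors and matrix stabilisers, 9 genes of coagulation, fibrinolysis, kinin release and complement, 5 major urinary proteins, 4 cytochromes P450, and 7 enzymes of amino acid breakdown and the urea cycle. The label of the list holds for them as liver products, but 12 of the 38 are, by general knowledge, also expressed in other tissues.

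The arrays measured mRNA of pancreatic islets from male mice of ICR background, 16 weeks old, with 2 arrays in each of 3 groups. Trsp, the gene of the selenocysteine transfer RNA, was floxed on both alleles in all 3 groups, and the labels name no Cre for TrspFF. Trsp-RIPKO mice also carried RIP-Cre, under a rat insulin promoter that acts in beta cells and is known to act in some hypothalamic neurons too, and Trsp-Ins1KO mice carried Ins1-Cre, which acts in beta cells. Cre was thus not directed at hepatocytes or at other islet cells in either line. In which cells Trsp was lost was not checked here. The labels do not tell whether both arrays of a group are from different animals, so the spread between them, and every p below, may be technical.

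The group names of 4 arrays are in doubt. The authors' table of log2 values holds, under the name TrspFF, the values of the scanner files recorded for Trsp-Ins1KO (r = 1.0 over 19486 probes), and the reverse, while Trsp-RIPKO columns match their own files. The right naming was not settled by the sources used here. Groups below are those of the scanner files. Under the table's names, the arrays called Trsp-Ins1KO here would be the TrspFF arrays and the reverse, and a difference between the 2 would change its sign.

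The 2 Trsp-Ins1KO arrays were also dimmer than the rest. Their 75th percentiles of processed intensity were 121.9 and 110.7, against 203.0 to 247.2 elsewhere, and 52.2% and 51.4% of probes were well above background against 57.5% to 61.0%. No probe was saturated (0 on each array). The 20 islet hormone cell markers examined were all well above background on all 6 arrays. Levels below are log2 processed intensity minus the array's 75th percentile, a scale on which 0 is a probe as bright as that percentile. A probe was taken as measured on an array where the scanner software marked it well above background.

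Hepatocytes make most of the proteins of blood plasma and hold the enzymes of urea synthesis, of amino acid breakdown and of drug oxidation. The promoters of many such genes are bound by HNF1, HNF4 and C/EBP factors, and HNF1 and HNF4 factors also act in islet cells. Albumin, the fibrinogen chains and the major urinary proteins are classical hepatocyte products, whereas retinol-binding protein, transferrin, vitamin D-binding protein and complement C3 are made in several tissues. In bulk RNA, fewer cells of a type and less RNA per cell cannot be told apart.

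The 38 genes fell into 3 sets by detection. On both Trsp-Ins1KO arrays and on no other array, 17 were well above background: Alb, Hp, Apoh, Ahsg, Serpina3k, Itih4, Fgb, Fgg, Serpinc1, Kng1, Mup3, Mup4, Mup5, Mup19, Mup20, Cyp2e1 and Cyp3a11. On all 6 arrays, 12 were measured: Gc, Rbp4, Trf, Apoa2, Ambp, F2, Vtn, C3, Tat, Fah, Ass1 and Arg1. On no array, 7 were measured: Itih3, Fga, Cyp2c29, Cyp1a2, Hpd, Tdo2 and Cps1. The remaining 2 were Hpx, measured on all arrays but Trsp-RIPKO 2, and Plg, measured on Trsp-Ins1KO 2 alone. Over all 19750 genes, 0.167% (33) were measured on both Trsp-Ins1KO arrays only, 59.1% on all 6 and 28.3% on none. The list was chosen on these flags, so nothing is read from the contrast of these shares.

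Promoters of the members show which of their regulatory letters are shared between the sets, and 4 are printed here. Alb and Fgb were measured on the Trsp-Ins1KO arrays only and hold matches to the HNF1 motif, Mup19 belongs to the same set and holds none, and Gc holds a match and was measured on all 6 arrays. Capitals mark matches to GTTAATNATTAAC with at most 3 mismatches, a motif that reads the same on both strands. Each sequence is the 250 bases before the annotated start, 5′ to 3′ on the gene's strand, from RefSeq on GRCm38.p6. The positions are chr5:90460620-90460869 (plus strand) for Alb, chr3:83049864-83050113 (minus strand) for Fgb, chr4:61782225-61782474 (minus strand) for Mup19, and chr5:89457899-89458148 (minus strand) for Gc.
Alb: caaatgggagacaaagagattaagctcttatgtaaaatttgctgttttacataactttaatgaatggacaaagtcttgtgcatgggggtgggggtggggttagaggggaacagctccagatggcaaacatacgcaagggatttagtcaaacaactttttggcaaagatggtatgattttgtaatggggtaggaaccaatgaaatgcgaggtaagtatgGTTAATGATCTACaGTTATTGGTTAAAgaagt
Fgb: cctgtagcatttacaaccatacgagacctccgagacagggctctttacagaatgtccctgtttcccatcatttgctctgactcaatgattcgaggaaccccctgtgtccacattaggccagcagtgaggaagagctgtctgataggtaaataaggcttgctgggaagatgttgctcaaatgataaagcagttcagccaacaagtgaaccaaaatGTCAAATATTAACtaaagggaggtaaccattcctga
Mup19: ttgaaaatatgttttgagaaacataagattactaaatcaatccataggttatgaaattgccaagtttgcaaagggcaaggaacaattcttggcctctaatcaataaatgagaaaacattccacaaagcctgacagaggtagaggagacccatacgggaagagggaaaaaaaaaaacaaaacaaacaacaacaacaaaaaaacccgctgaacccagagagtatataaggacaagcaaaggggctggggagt
Gc: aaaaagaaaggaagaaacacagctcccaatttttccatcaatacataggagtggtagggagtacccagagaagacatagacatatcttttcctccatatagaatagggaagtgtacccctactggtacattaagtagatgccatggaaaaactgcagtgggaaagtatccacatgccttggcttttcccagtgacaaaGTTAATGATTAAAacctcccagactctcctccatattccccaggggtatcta
The matches start 32 and 18 bases before the start of Alb, 36 before that of Fgb and 52 before that of Gc.

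Promoters from 250 bases before to 50 after the start were at hand for 29 of the 38 members. An HNF1 match was found in 4 of the 12 promoters of members measured on the Trsp-Ins1KO arrays only (Alb, Apoh, Fgb and Cyp2e1), in 3 of 12 promoters of members measured on all arrays, in 1 of 6 of those measured on none, and in 8.33% of 32851 mouse promoters. The 12 promoters of members measured on all arrays belong to 10 genes, as Apoa2 and Rbp4 each had more than 1. The HNF4 motif AGGTCANAGGTCA, with at most 3 mismatches on either strand, was found in 1 of 12, 4 of 12 and 3 of 6 promoters in the same order, and in 24.6% of all. The 4 of 12 include both Apoa2 promoters. The C/EBP motif TTGCGCAA, with at most 1 mismatch, was found in 4 of 12, 1 of 12 and 1 of 6, and in 5.92% of all. None of the 8 member promoters with an HNF1 match had it overlapping an HNF4 match (0 of 8). HNF1 matches thus occurred in each of the 3 sets, and such matches are letters only, not sites.

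Albumin, the most abundant plasma protein, gave the clearest contrast among the carriers. The Alb level was -4.95 and -4.24 on TrspFF, -5.34 and -4.46 on Trsp-RIPKO, and -0.21 and -0.23 on Trsp-Ins1KO. Its probe was therefore close to the 75th percentile on both Trsp-Ins1KO arrays and not well above background on the other 4. The Trsp-Ins1KO mean was at least 17.2-fold higher than that of TrspFF and at least 16.2-fold higher than that of Trsp-RIPKO. These bounds set the brighter mean against, per dim array, the higher of the lowest signal well above background and the probe's own signal.

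Haptoglobin, which binds free haemoglobin, and beta-2-glycoprotein I, which binds phospholipids, behaved alike at lower levels. Hp stood at -5.33 and -5.5 on TrspFF, -4.98 and -4.94 on Trsp-RIPKO, and -1.27 and -1.65 on Trsp-Ins1KO, at least 7.5-fold higher than in TrspFF. Apoh stood at -6.37 and -5.22, -4.4 and -5.37, and -3.13 and -2.81 across those groups, at least 2.63-fold higher than in TrspFF. For both genes the Trsp-Ins1KO arrays lay above all 4 others. Hpx, which encodes the haem carrier hemopexin, was measured outside Trsp-Ins1KO too: it stood at -3.67 and -3.79 on TrspFF, -3.57 and -4.88 on Trsp-RIPKO, and -2.52 and -2.79 on Trsp-Ins1KO. Its Trsp-Ins1KO arrays were again the highest, by less than those of Alb.

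Among the protease inhibitors, fetuin-A, a carrier of calcium phosphate, stood out. Ahsg was at -4.61 and -6.45 on TrspFF, -4.33 and -5.91 on Trsp-RIPKO, and -0.05 and -0.3 on Trsp-Ins1KO. Its Trsp-Ins1KO mean was at least 18.3-fold higher than that of TrspFF and at least 16.7-fold higher than that of Trsp-RIPKO. Serpina3k, a relative of human antichymotrypsin, was at -2.62 and -2.43 on the Trsp-Ins1KO arrays, at least 3.57-fold higher than in TrspFF. Itih4, an inter-alpha-inhibitor heavy chain, was at -2.26 and -1.84 there, at least 4.99-fold higher, although its second probe was measured on no array. Itih3, another heavy chain, was measured on none, so the family did not appear as a whole.

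**Figure D1:**
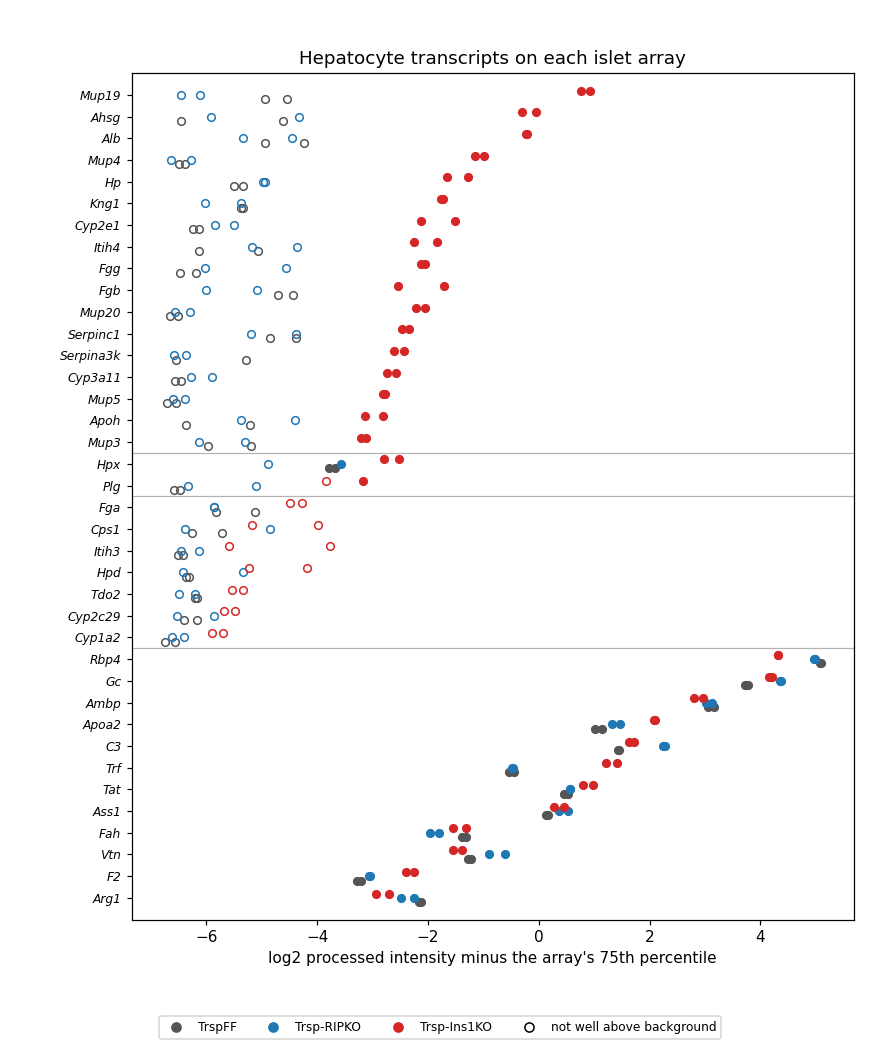
Level of each of the 38 genes on each of the 6 arrays, as log2 processed intensity minus the array's 75th percentile. Filled points were well above background and open points were not; grey is TrspFF, blue Trsp-RIPKO and red Trsp-Ins1KO. The top block holds the 17 genes measured on both Trsp-Ins1KO arrays only, followed by Hpx and Plg, the 7 genes measured on no array and the 12 measured on all 6.

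The 3 fibrinogen chains, which assemble into 1 clotting protein, were split by the flags. Fgb was at -4.44 and -4.7 on TrspFF, -6.0 and -5.08 on Trsp-RIPKO, and -2.55 and -1.71 on Trsp-Ins1KO, at least 4.71-fold higher than in TrspFF. Fgg was at -6.19 and -6.47, -6.03 and -4.56, and -2.12 and -2.05 across those groups, at least 4.86-fold higher. Fga was well above background on no array, with -5.13 and -5.83, -5.86 and -5.86, and -4.49 and -4.27. The 2 Trsp-Ins1KO values were the highest for all 3 chains, but for Fga they lay under the lowest level called above background on those arrays, -3.59 and -3.39.

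Other clotting genes varied as much. Serpinc1, which encodes antithrombin, was at -2.34 and -2.46 on Trsp-Ins1KO and at -4.38 or lower on the other arrays, at least 3.91-fold higher than in TrspFF. Kng1, the precursor of bradykinin, was at -1.77 and -1.73 on Trsp-Ins1KO and at -5.33 or lower elsewhere, at least 6.12-fold higher than in TrspFF. A second Kng1 probe, made for another accession, was measured on no array. Plg, the precursor of plasmin, lay just outside the set: its Trsp-Ins1KO levels were -3.84, not above background, and -3.17, above it. Just inside was Mup3, at -3.2 and -3.12. For Plg the 2 Trsp-Ins1KO arrays thus lay on either side of the line.

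Major urinary proteins, lipocalins that carry pheromones in mouse urine, were the one role in which all 5 listed genes were measured on the Trsp-Ins1KO arrays only. Mup19 was at -4.54 and -4.94 on TrspFF, -6.11 and -6.45 on Trsp-RIPKO, and 0.92 and 0.76 on Trsp-Ins1KO, at least 36.9-fold higher than in TrspFF and 33.7-fold higher than in Trsp-RIPKO. Mup4 was at -0.99 and -1.15 on Trsp-Ins1KO and at -6.28 or lower elsewhere, at least 9.82-fold higher than in TrspFF. Mup20, which encodes darcin, followed at -2.06 and -2.21, Mup5 at -2.77 and -2.82, and Mup3 at -3.2 and -3.12, with bounds of 4.69, 2.97 and 2.3 against TrspFF. The Mup genes are near-identical copies, so a probe named for one may read several, and their 5 levels are not 5 separate observations. A second Mup19 probe gave 0.34 and 0.06 on Trsp-Ins1KO and -5.09 or lower elsewhere, while second probes of Mup4 and Mup20 were measured on no array.

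The cytochromes P450, which oxidise drugs and steroids, divided evenly. Cyp2e1, the ethanol-inducible form, was at -6.24 and -6.13 on TrspFF, -5.85 and -5.5 on Trsp-RIPKO, and -1.51 and -2.12 on Trsp-Ins1KO, at least 5.85-fold higher than in TrspFF. Cyp3a11 was at -2.74 and -2.58 on Trsp-Ins1KO and at -5.89 or lower elsewhere, at least 3.26-fold higher. For neither gene did a second probe bear this out: that of Cyp2e1 was measured on no array, and that of Cyp3a11 was above background on TrspFF 1 alone, with -4.02 there and -3.66 and -3.42 on Trsp-Ins1KO. Cyp2c29 and Cyp1a2 were measured on no array.

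Across the 17 genes, levels ran from -3.2 to 0.92 on Trsp-Ins1KO 1 (median -2.12) and from -3.12 to 0.76 on Trsp-Ins1KO 2 (median -2.05). On the other 4 arrays their medians lay between -6.13 and -5.37. The bounds ran from 2.3-fold to 36.9-fold against TrspFF (median 4.86) and from 2.1-fold to 33.7-fold against Trsp-RIPKO (median 4.43). Between the 2 Trsp-Ins1KO arrays, array 1 minus array 2 ran from -0.85 for Fgb to 0.61 for Cyp2e1, with a median of 0.02. Its SD was 0.33, against an SD of 0.26 over 6868 genes of like level, so it was somewhat larger in these genes. The 17 had to be well above background on both arrays, which leaves out a gene split by the flag, such as Plg.

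The number of genes called absent from the other arrays depended on the flag used. By the scanner's looser flag, a signal positive and significant against its local background, 13 of the 17 were present on at least 1 TrspFF array (7 on both) and 12 on at least 1 Trsp-RIPKO array (9 on both). By that flag only 3 members were present on both Trsp-Ins1KO arrays and no other. That flag is permissive, since 46.3% of genes well above background on no array carried it on at least 1 TrspFF array. It therefore does not show that the 17 genes were expressed in those groups. Levels of dim probes also shifted with the dimmer arrays: over the 5589 genes measured on no array, the median level in Trsp-Ins1KO was 0.78 above that in TrspFF, and in Trsp-RIPKO 0.13 above it. The 7 members measured on no array were 0.7 to 1.8 higher in Trsp-Ins1KO than in TrspFF (median 1.1). They include Cps1, which makes carbamoyl phosphate for the urea cycle, and Hpd and Tdo2, which break down tyrosine and tryptophan.

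The 12 genes measured on all 6 arrays went in both directions. Transferrin, the plasma iron carrier, was higher in Trsp-Ins1KO. Trf was at -0.44 and -0.53 on TrspFF, -0.46 and -0.48 on Trsp-RIPKO, and 1.42 and 1.21 on Trsp-Ins1KO. Its difference from TrspFF was 1.80 (SE 0.095) in Trsp-Ins1KO and 0.01 in Trsp-RIPKO, and a second probe gave 1.86 and 0.15. Apoa2, an apolipoprotein of high-density lipoprotein, was at 1.14 and 1.02, 1.46 and 1.32, and 2.1 and 2.08, a difference of 1.01 (SE 0.086) in Trsp-Ins1KO. The 2 Apoa2 probes disagreed in size and, for Trsp-RIPKO, in direction: the dimmer probe gave 2.47 in Trsp-Ins1KO and -0.84 in Trsp-RIPKO, where the brighter gave 0.30. F2, which encodes prothrombin, was at -3.2 and -3.29, -3.07 and -3.04, and -2.25 and -2.4, a difference of 0.92 (SE 0.084) in Trsp-Ins1KO. For these 3 genes the Trsp-Ins1KO arrays lay above all 4 others.

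Retinol-binding protein went the other way. Rbp4 was at 5.09 and 5.08 on TrspFF, 4.97 and 4.98 on Trsp-RIPKO, and 4.31 and 4.32 on Trsp-Ins1KO, a difference of -0.77 (SE 0.062) between Trsp-Ins1KO and TrspFF. Arg1, the arginase that ends the urea cycle, was at -2.17 and -2.12, -2.25 and -2.49, and -2.71 and -2.93, a difference of -0.67 (SE 0.121) whose sign turned (0.09) when background was corrected with normexp. On the main scale both genes were lowest on the Trsp-Ins1KO arrays. Ambp, the precursor of alpha-1-microglobulin and bikunin, differed by -0.22 (SE 0.093) in Trsp-Ins1KO.

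A further pattern was a larger difference in Trsp-RIPKO. C3, the central complement component, was at 1.43 and 1.44 on TrspFF, 2.25 and 2.28 on Trsp-RIPKO, and 1.71 and 1.63 on Trsp-Ins1KO, so that Trsp-RIPKO stood 0.83 and Trsp-Ins1KO 0.24 above TrspFF (SE 0.067). Gc, the vitamin D-binding protein, was at 3.72 and 3.77, 4.38 and 4.35, and 4.21 and 4.15, differences of 0.62 and 0.43 (SE 0.067); its second probe gave 0.78 and 1.13, so the order of the 2 knockouts turned between probes. Vtn, which encodes vitronectin, was 0.50 above TrspFF in Trsp-RIPKO and 0.22 below it in Trsp-Ins1KO (SE 0.122), the second of which turned to 0.08 above it with normexp. The Trsp-RIPKO arrays were the highest for C3 and Vtn.

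Differences of the remaining enzymes were smaller. Tat, which breaks down tyrosine, stood 0.39 (SE 0.087) above TrspFF in Trsp-Ins1KO and 0.07 above it in Trsp-RIPKO. Fah, the last enzyme of tyrosine breakdown, differed by -0.54 (SE 0.112) in Trsp-RIPKO and -0.08 in Trsp-Ins1KO. Ass1, which makes argininosuccinate, differed by 0.30 and 0.21 (SE 0.095) in the same order.

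**Figure D2:**
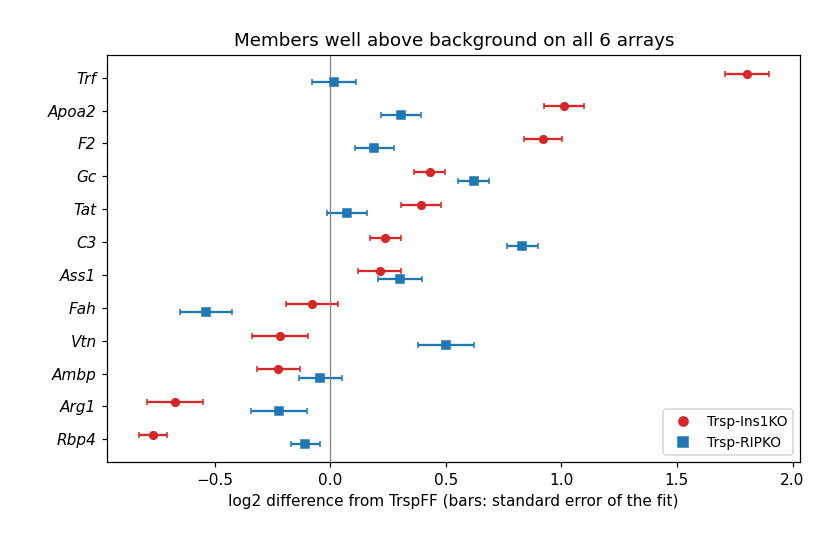
Log2 difference from TrspFF of the 12 genes measured on all 6 arrays, in Trsp-Ins1KO (red circles) and Trsp-RIPKO (blue squares), each from 2 arrays a group; bars are the standard error of the fit. Trf, Apoa2 and F2 lie highest for Trsp-Ins1KO and Rbp4 lowest, whereas C3 and Gc lie highest for Trsp-RIPKO.

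RNA added from 1 other tissue in a fixed share would add to each of its genes in 1 ratio between arrays. Linear increments over TrspFF are therefore given side by side for the 12 genes measured on all 6 arrays. The 17 genes measured on the Trsp-Ins1KO arrays only are left out, as they were not well above background on TrspFF or Trsp-RIPKO. Of the 12, 8 are also well known outside liver, so islet expression and added RNA cannot be told apart by the ratio. As a percent of the TrspFF level, the increment in Trsp-Ins1KO was 249 for Trf, 101.6 for Apoa2, 89.3 for F2, 34.8 for Gc, 31.2 for Tat, 17.9 for C3 and 15.9 for Ass1. In Trsp-RIPKO it was 1.0, 23.5, 14.0, 53.7, 5.0, 77.9 and 23.2 for the same genes. The ratio of the 2 increments ran from 0.23 for C3 and 0.65 for Gc to 6.36 for F2, and was higher still for Trf, whose Trsp-RIPKO increment was near 0. The other 5 genes, Rbp4, Arg1, Ambp, Vtn and Fah, were below TrspFF in Trsp-Ins1KO, by 41.2%, 37.2%, 14.4%, 14.0% and 5.4%. The log2 ratio over the 7 genes with increments in both knockouts had an SD of 3.33, which rested largely on Trf: without it the SD was 2.04 over 6 genes. Both increments share the TrspFF arrays, and what share of them came from another tissue was not tested.

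Of the 38 members, 30 entered the fit across all 19021 genes, 17 of them through the Trsp-Ins1KO arrays alone. For those 17 the filter itself favoured a difference, so their calls are no support. By limma at an adjusted p under 0.05, 23 of the 30 were higher and 2 lower in Trsp-Ins1KO than in TrspFF, where 23.0% and 23.0% of all genes were called. Against Trsp-RIPKO, 23 were higher and 4 lower, where 19.3% and 19.4% of all genes were called. Trsp-RIPKO against TrspFF gave 4 higher (Gc, Apoa2, Vtn and C3) and 2 lower, where 18.9% and 17.5% of all genes were called. One of the 2 lower genes was Mup19, which was well above background in neither group and so has no direction. The 4 higher calls became 1 without TrspFF 1 and 2 without TrspFF 2 or Trsp-RIPKO 2. Since the members were chosen on these contrasts, nothing is read from the counts. The median difference over the 30 was 2.43 in Trsp-Ins1KO and 0.10 in Trsp-RIPKO against TrspFF, beside -0.014 and 0 over all genes tested. Over the 12 members measured on all arrays it was 0.22 and 0.13. Of these 12, 6 were called higher and 2 lower in Trsp-Ins1KO against TrspFF (25.0% and 22.9% of the 16096 genes measured on all arrays). In Trsp-RIPKO against TrspFF 4 were higher and 1 lower (18.1% and 19.7%), and between the knockouts 5 were higher and 4 lower in Trsp-Ins1KO (21.6% and 16.7%).

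The sets are set beside known sites of expression and roles as counts only. Of the 12 members also well known outside liver, 8 were measured on all arrays, 3 on the Trsp-Ins1KO arrays only (Hp, Cyp2e1 and Cyp3a11) and 1 on none. Of the 26 others, 4 were measured on all arrays (Apoa2, Ambp, F2 and Tat), 14 on the Trsp-Ins1KO arrays only and 6 on none. Of the 7 amino acid and urea cycle enzymes, 4 were measured on all arrays, 3 on none and 0 on the Trsp-Ins1KO arrays only. Summed over the 5 Mup genes, the level was 0.07 to 0.09 times the 75th percentile outside Trsp-Ins1KO, against 2.89 and 2.62 times it on the Trsp-Ins1KO arrays.

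The 33 genes measured on both Trsp-Ins1KO arrays only comprised the 17 members, 5 further hepatocyte genes (Apom, Bhmt, Pzp, Serpinf2 and Akr1c6) and 11 genes on none of the hepatocyte lists. The 11 were Apln, Bcat1, Mpp4, Rhox3a, Trim12a, Fgf21, Acyp2, Il4ra, Atoh8, Wfdc21 and 1700022I11Rik. For comparison, 222 genes (1.12%) were measured on both Trsp-RIPKO arrays only and 75 (0.38%) on both TrspFF arrays only, and neither set held a member.

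**Figure D3:**
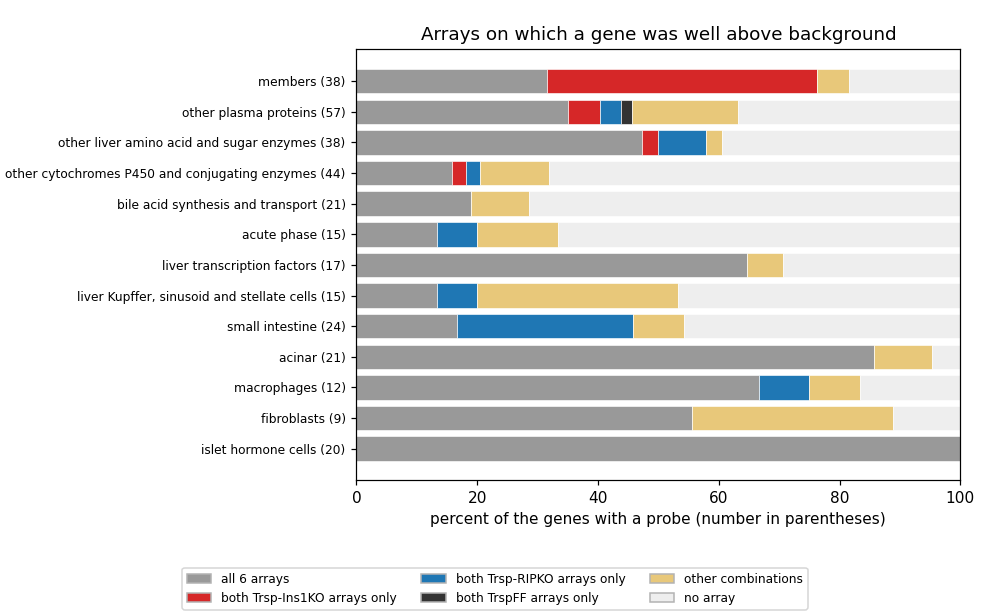
Share of the genes of each list (number with a probe in parentheses) that were well above background on all 6 arrays, on both arrays of 1 group only, in other combinations, or on no array. Of the 38 members, 17 lie in the Trsp-Ins1KO class, whereas 7 of the 24 small intestine markers lie in the Trsp-RIPKO class.

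Hepatocyte genes outside the list were also chosen with earlier results of these data known. Their counts and p-values, here and below, are therefore a description and no independent support. They were taken from 4 lists of plasma proteins, amino acid and sugar enzymes, cytochromes P450 with conjugating enzymes, and bile acid genes, 160 of them with a probe. Of these, 49 were measured on all arrays, 5 on the Trsp-Ins1KO arrays only, 6 on the Trsp-RIPKO arrays only and 81 on none, and 73 entered the fit. The 5 and the 6 entered through 1 knockout only, so the filter itself favoured a difference, and nothing is read from their calls. In Trsp-Ins1KO 38 rose and 8 fell against TrspFF (limma, adjusted p under 0.05), with a median difference of 0.48, beside 23.0% of all genes in each direction. In Trsp-RIPKO 18 rose and 13 fell, with a median of 0.10, but the 13 became 0 without TrspFF 1 and 1 without TrspFF 2, and the 18 became 9 and 10. The 8 that fell in Trsp-Ins1KO became 4 without TrspFF 1 and 5 without TrspFF 2. Between the knockouts, 36 were higher and 10 lower in Trsp-Ins1KO, and the 36 became 23 without Trsp-RIPKO 1. Beside these counts, 18.9% of all genes were called higher and 17.5% lower in Trsp-RIPKO against TrspFF. Between the knockouts, 19.3% of all genes were higher and 19.4% lower in Trsp-Ins1KO. Over the 49 measured on all arrays, 27 rose and 6 fell in Trsp-Ins1KO (25.0% and 22.9% of all such genes), with a median of 0.51. In Trsp-RIPKO 12 rose and 13 fell (18.1% and 19.7%), with a median of -0.05. Some of the 49 were read by a probe that was bright in TrspFF islets too. The chosen probe of F10 stood there at 10.43 and 10.51, and that of Serpina10 at 4.55 and 4.57. Each of these genes has 2 probes, and the other one is not given, so the levels rest on 1 probe. Whether the rises of these 49 genes came from hepatocyte RNA was not tested.

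By list, in Trsp-Ins1KO against TrspFF, 18 of the 33 plasma proteins tested rose and 5 fell, and 10 of 23 amino acid and sugar enzymes rose and 2 fell. Of 12 P450 and conjugating enzymes 6 rose and 1 fell, and of 5 bile acid genes 4 rose. Over all genes tested, 23.0% were called in each direction. Among genes measured on all 6 arrays, 12 of 20, 8 of 18, 4 of 7 and 3 of 4 rose, in the same order of lists. There 3, 2, 1 and 0 fell, beside 25.0% higher and 22.9% lower of all such genes. Nothing is read from these counts. Bhmt, which methylates homocysteine, was at least 4.05-fold higher in Trsp-Ins1KO than in TrspFF and Pzp, an alpha-2-macroglobulin relative, at least 3-fold. Both were measured on the Trsp-Ins1KO arrays only, so these bounds are a description. Slc27a5, a bile acid activating enzyme, rose by 2.02 (SE 0.099, limma adjusted p = 0.000741) in Trsp-Ins1KO and differed by -0.13 in Trsp-RIPKO. Fetub, the paralogue of Ahsg, rose in both, by 1.95 (SE 0.094, limma adjusted p = 0.000716) and 1.23 (limma adjusted p = 0.00368). Other genes of these lists went the opposite way: Ugt2b34, a glucuronidating enzyme, fell by 1.22 in Trsp-Ins1KO (SE 0.078, limma adjusted p = 0.00129). G6pc, which releases glucose from its phosphate, was measured on the Trsp-RIPKO arrays only and stood at least 3.44-fold above TrspFF there, likewise a description.

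**Figure D4:**
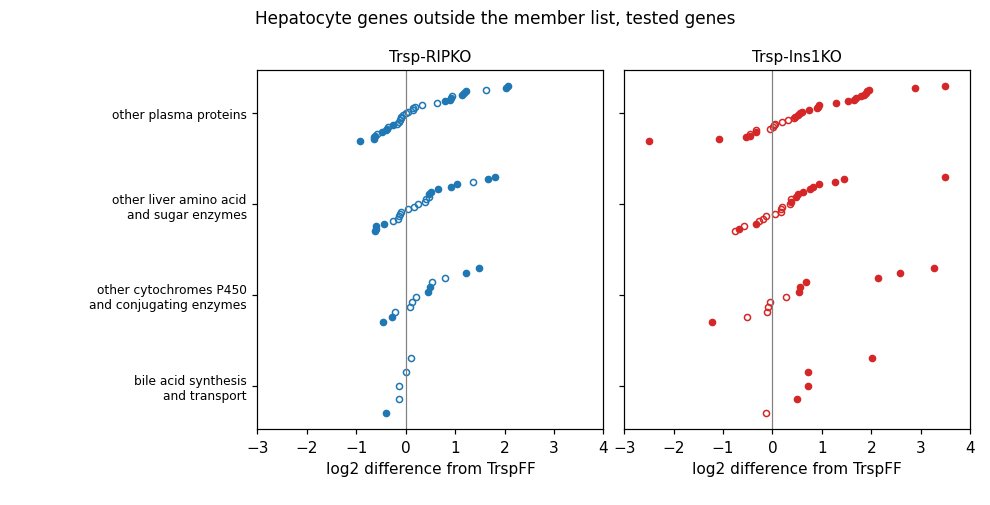
Log2 difference from TrspFF of the 73 tested hepatocyte genes outside the member list, by list, in Trsp-RIPKO (left) and Trsp-Ins1KO (right). Each point is a gene. Filled points passed limma at an adjusted p under 0.05, 18 higher and 13 lower on the left and 38 higher and 8 lower on the right. Of all genes tested, 18.9% were called higher and 17.5% lower on the left, and 23.0% in each direction on the right.

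Some close relatives of members were measured in every group. Mup2 was measured on all 6 arrays, at -2.48 and -2.57 on TrspFF, -2.75 and -2.71 on Trsp-RIPKO, and -0.27 and -0.29 on Trsp-Ins1KO, a rise of 2.25 (SE 0.069, limma adjusted p = 0.000397). Of the other 2 Mup genes with a probe, Mup6 and Mup21, neither was measured on any array. Serpina1a, an alpha-1-antitrypsin gene singled out after its values were seen, was measured on all arrays too, at -0.54 and -0.43, -1.08 and -1.13, and 1.39 and 1.35, a rise of 1.86 (SE 0.075, limma adjusted p = 0.000496). Both belong to families of near-identical copies, and both were highest on the Trsp-Ins1KO arrays.

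Liver regulators and markers of other liver cells were examined beside the members. Of 17 liver transcription factors with a probe, 12 were tested, 2 rose and 2 fell in Trsp-Ins1KO, beside 23.0% of all genes in each direction. Nothing is read from that count. Hnf4a rose by 0.43 (SE 0.069, limma adjusted p = 0.00782, but 0.0654 without TrspFF 1), and Cebpa and Onecut1 were well above background on no array. Of 15 markers of Kupffer, sinusoidal and stellate cells, 7 were measured on no array, among them Clec4f, a Kupffer cell marker, and Vsig4 and Timd4, which mark other resident macrophages too. Of the 5 tested, 2 rose and 0 fell in Trsp-RIPKO against TrspFF (18.9% and 17.5% of all genes). In Trsp-Ins1KO Stab1 rose by 1.43 (limma adjusted p = 0.000819), Lyve1 fell by 1.27 (limma adjusted p = 0.00655) and 3 did not pass, beside 23.0% of all genes called in each direction. Between the knockouts 1 was higher and 4 lower in Trsp-Ins1KO (19.3% and 19.4% of all genes). The summed level of the 15 was 1.24 and 1.44 times the 75th percentile on TrspFF, 1.56 and 1.47 on Trsp-RIPKO, and 1.57 and 1.55 on Trsp-Ins1KO. Of the 15 acute phase genes, 4 were tested and 1 of them, the lipopolysaccharide-binding Lbp, fell in Trsp-Ins1KO, where 23.0% of all genes fell. Afp, the fetal counterpart of albumin, was measured on no array.

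Markers of other tissues moved with the groups as well. Of 13 small intestine markers tested, 12 were higher in Trsp-RIPKO and 8 in Trsp-Ins1KO, beside 18.9% and 23.0% of all genes. However, 7 of the 13 entered through the Trsp-RIPKO arrays only, so the filter itself favoured a difference. Of the 4 measured on all arrays, 3 rose in each knockout, beside 18.1% and 25.0% of all such genes. The list had summed levels of 9.56 to 9.58 on TrspFF, 17.02 to 17.49 on Trsp-RIPKO and 13.28 to 14.1 on Trsp-Ins1KO. Of 18 acinar markers measured on all arrays, 16 rose in Trsp-RIPKO (18.1% of all such genes), and 14 rose and 1 fell in Trsp-Ins1KO (25.0% and 22.9%), with summed levels of 17.04 to 17.49, 27.57 to 29.95 and 24.5 to 26.31. Fabp1, a fatty-acid-binding protein of both gut and liver, was at least 13.1-fold higher in Trsp-RIPKO and at least 11.6-fold higher in Trsp-Ins1KO than in TrspFF, on neither array of which it was measured. Of 5 fibroblast markers measured on all arrays, 4 rose in Trsp-RIPKO (18.1% of all such genes), and 1 rose and 4 fell in Trsp-Ins1KO (25.0% and 22.9%), with summed levels of 12.84 to 13.28, 19.8 to 19.9 and 4.92 to 5.1. Of 10 macrophage markers tested, 2 rose and 1 fell in Trsp-RIPKO (median 0.17), beside 18.9% and 17.5% of all genes. In Trsp-Ins1KO 5 rose and 0 fell (median 0.37), beside 23.0% in each direction. Their summed levels, in which bright probes weigh most, were 143.98 to 146.23 on TrspFF, 195.72 to 208.55 on Trsp-RIPKO and 260.72 to 280.22 on Trsp-Ins1KO. The part of these cells in the member differences was not tested. TrspFF and Trsp-Ins1KO shared slide 1, within which the contrast of members between them lies whole, while slide 2 held Trsp-RIPKO only, so for Trsp-RIPKO its slide and its group cannot be told apart.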

How the data were processed

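Islet RNA was labelled with Cy3 and hybridised to 1-colour Agilent arrays of design 026655, per the labels and the file headers. The deposited scanner files, read by the authors with Feature Extraction 10.7.3.1 per the file headers, give each spot's processed intensity, its median signals, and flags of 0 or 1. The authors' deposited table holds log2 values centred per probe, with a scaling not stated in the sources used here (column medians TrspFF 0.087 and 0.141, Trsp-RIPKO 0.011 and -0.029, Trsp-Ins1KO -0.079 and -0.045, each named as in the table).

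The members and gene lists were chosen with earlier results of these data known. From the processed intensity, log2 values minus each array's 75th percentile were computed, without the 1377 control spots and without outlier spots, and spots of 1 probe were averaged (39426 probes). RefSeq accessions named 26053 probes through a GRCm38.p6 table. Every member is named. A gene was represented by its brightest probe among those well above background on all arrays of a group, or by its brightest probe where none was. From every other list, the rule names up to 4 called genes with the largest differences per knockout and the first 3 of each list, and relatives of members were added.

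limma 3.58.1 (R 4.3.3) fitted a mean per group over all 6 arrays and 19021 genes (5.1 total degrees of freedom), with two-sided tests and Benjamini-Hochberg adjustment over all of them. Array number and signal over background limit precision, and the fit was tested on simulated data. Arrays with the same number did not deviate together (r = 0.093, 0.079 and 0.065), so they were not paired. The annotation names no Trsp probe, so knockout was not checked. Motifs were searched in RefSeq promoters. Plots used matplotlib 3.10.9.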

Additional observations from a re-analysis of the deposited data

Results flagged for a closer look

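The test of Trsp-Ins1KO against Trsp-RIPKO drew attention to hepatocyte genes outside the member list: 36 of the 73 tested were higher and 10 lower in Trsp-Ins1KO (limma, adjusted p under 0.05). Over all genes, 19.3% were higher and 19.4% lower. Among those higher there was Serpina1a, an alpha-1-antitrypsin gene singled out after its values were seen, by 2.48 (SE 0.075, limma adjusted p = 0.000231). Cp, the copper carrier ceruloplasmin, was at least 4.18-fold lower there (limma adjusted p = 0.000231), its probe being well above background on neither Trsp-Ins1KO array. Probes without a gene symbol gave a signal outside the main measurement: 9 of 13373 were well above background on both Trsp-Ins1KO arrays and on no other. The brightest of the 9 stood at -0.03 and -0.24 on those arrays and at -6.24 or lower elsewhere, at least 18.8-fold above TrspFF.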

How the results depend on the processing

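With each result recomputed under other settings, 144 of 183 values that left out no array stayed within 1.5 times, or within the spread between replicates. Where an array was left out, 82 of 102 did so. Some of these values could not move. A replicate block or another estimate of the error leaves the medians and the increment ratio unchanged. The authors' values, matched by scanner file, are the same data. The shares are therefore no measure of robustness. Under the authors' own column names the members' median difference turned to -2.43 for Trsp-Ins1KO against TrspFF and to -0.1 against Trsp-RIPKO, and became -2.48 for Trsp-RIPKO against TrspFF. The counts of members then became 2 higher and 23 lower for Trsp-Ins1KO against TrspFF, 2 higher against Trsp-RIPKO, and 23 lower for Trsp-RIPKO against TrspFF. Hepatocyte genes outside the list became 8 higher and 38 lower, 13 higher and 18 lower, and 10 higher and 36 lower in the same order of contrasts, and the SD of the increment ratio became 1.22. Restricted to genes measured on all 6 arrays, the medians were 0.22 and, reversed, -0.14, the members higher 6 and 5, the members lower in Trsp-RIPKO 1, and the outside genes lower between the knockouts 5; fewer genes were tested there. With no filter the medians were 1.72 and 1.59, members in Trsp-RIPKO 2 higher and 1 lower, and outside genes 92 and 82 higher, with 5 lower in Trsp-RIPKO. Background correction by normexp on the median signals, used because the files hold no mean signals, gave medians of 0.98 and 0.88, 9 members higher in Trsp-RIPKO and 6 outside genes lower between the knockouts; the 17 genes stayed higher in Trsp-Ins1KO than in TrspFF. Median scaling, which brought the median of all genes to -0.238 in Trsp-RIPKO against TrspFF and to 0.161 between the knockouts, gave a median of -0.13, 2 members higher and 5 lower, and 20 outside genes lower in Trsp-RIPKO. Fitting only the 2 groups compared left 1 member lower in Trsp-RIPKO, and quantile normalization gave an SD of the increment ratio of 1.95. The causes were not tested. With the flag of a positive and significant signal, chosen after seeing the data, 3 members in place of 17 were present on the Trsp-Ins1KO arrays only; leaving Trf out of the increment ratio, also chosen then, gave an SD of 2.04.

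Leaving out each array in turn gave 17 to 18 members on the Trsp-Ins1KO arrays only. The medians ran from 2.14 to 2.86 in Trsp-Ins1KO and 0.07 to 0.17 in Trsp-RIPKO against TrspFF, and from 2.15 to 2.56 between the knockouts. Members higher ran from 19 to 23, 1 to 5 and 19 to 22, and members lower from 1 to 2, 1 to 3 and 3 to 4. Outside genes higher ran from 28 to 41, 9 to 21 and 23 to 35, and lower from 4 to 9, 0 to 14 and 7 to 12. The SD of the increment ratio ran from 2.06 to 3.92. With the replicate block, 22 members were higher in Trsp-Ins1KO than in either other group and 5 in Trsp-RIPKO than in TrspFF, and no other count moved by over 1.5 times.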
